A study of Danio rerio with 4 samples.

Results

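The epicardium is the mesothelial sheet that covers the heart. It forms from cells of the proepicardium that settle on the heart muscle, it lays down a basement membrane and other matrix, it makes retinoic acid, and part of it later turns into fibroblasts and mural cells. Its best known regulators are the transcription factors Tcf21, Tbx18 and Wt1. Described here are the 60 genes whose transcripts were most particular to the cells annotated as Epicardium among 18 clusters of embryonic zebrafish heart cells, out of 25434 genes counted.

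The genes were chosen as follows. The raw UMIs (unique molecular identifiers, 1 per captured transcript end) of all annotated cells were summed per cluster and scaled to a total of 1000000 UMIs in each cluster (CPM). These are counts of transcript 3′ ends and are not scaled by length. A gene had to reach 50 CPM in Epicardium and to be highest there, which 765 genes did. These were ranked by Epicardium CPM plus 5 over the CPM plus 5 of the second highest cluster, and the first 60 were kept. All values that compare Epicardium with other clusters are therefore what the choice was made on, and are given as a description with no test.

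Whole hearts were pooled from embryos of crosses of Tg(myl7:mRFP), in which the heart muscle promoter myl7 drives a red protein, with 1 of 2 enhancer-trap lines, sqet31Et or sqet33mi59BEt, whose EGFP marks cells of the sinoatrial and atrioventricular regions. Each line gave 1 single-cell library (10x 3′ chemistry) at 48 hours post fertilization (hpf) and 1 at 72 hpf. Every animal carried both transgenes, no group was treated, and the 2 libraries of a stage differ in line as well as in pool, so n = 2 per stage and p-values measure only the spread between these libraries. The authors' annotation holds 34676 cells, of which 593 are Epicardium.

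The Epicardium cells were spread unevenly. At 48 hpf the sqet31Et library held 33 of them and the sqet33mi59BEt library 15, while the later libraries held 245 and 300. Their summed UMIs were 68023, 28262, 404062 and 262000 in that order, so 3 UMIs of a gene stand for 44.1, 106, 7.42 and 11.5 CPM. In the 48 hpf libraries 1 cell held 15.7% (sqet31Et) and 26.0% (sqet33mi59BEt) of the cluster's UMIs. At 72 hpf no cell held more than 0.899%. The median mitochondrial share of the cells was 6.61% and 10.3% at 48 hpf and 21.5% and 12.2% at 72 hpf. Pairs of libraries shared 28 to 71 cell barcodes, and 1 barcode was Epicardium in both 72 hpf libraries.

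The cluster was compared with 6 epicardial markers, tcf21, tbx18, wt1a, wt1b, aldh1a2 and gstm.3. All 6 were highest in Epicardium, but 5 of them are among the 60 genes, so they count toward the choice. The remaining one, wt1b, a second Wt1 gene, stood at 35.4 CPM (27 UMIs) and was under the 50 CPM limit. The paper itself describes this cluster by tbx18, gstm.3, wt1b and tcf21. Their levels are therefore no independent check of its name. Summed over the 6 markers the level was 2676 CPM and 708 CPM at 48 hpf (sqet31Et, then sqet33mi59BEt, an order kept below for each stage) and 4984 and 5683 CPM at 72 hpf. Both 72 hpf libraries were above both 48 hpf libraries.

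Markers of other cells were also present in the cluster. Heart muscle genes (4 matched of 5) summed to 1455 and 1203 CPM at 48 hpf and to 455 and 534 CPM at 72 hpf, against 42104 CPM in Myocardium. Smooth muscle genes (2 matched of 4) were at 0 at 48 hpf and at 106 and 76.3 CPM at 72 hpf, and 2 of 4 neural crest genes, sox10 and foxd3, had no UMI. Blood genes (4 matched of 5) summed to 515, 920.0, 76.7 and 2370.2 CPM over the 4 libraries. Liver genes (4 of 4) summed to 14.7, 1097, 1527 and 2427 CPM. Endothelial genes (5 of 5) summed to 58.8, 955, 287 and 397 CPM, against 3314 CPM in AV cushion. In the 48 hpf sqet33mi59BEt library the muscle, blood, liver and endothelial sums were each above the 708 CPM of the epicardial markers. No muscle, blood or liver gene matched was at 0 over all Epicardium cells. Mesothelial genes (krt94, podxl and cav1) were highest in Epicardium, at 3381, 2759.9, 4824 and 4782 CPM. The heart muscle genes were higher at 48 hpf and the liver genes were lowest in the 48 hpf sqet31Et library, and the mitochondrial share was highest in the 72 hpf sqet31Et library. The part of these in the stage differences below was not tested.

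Across the 60 genes the pooled Epicardium level ran from 55.1 to 2121 CPM with a median of 208 CPM. A gene was found in 0.506% to 69.1% of the 593 cells, with a median of 19.6%. The ratio to the second cluster ran from 2.80 to 16.4 with a median of 4.11. Of erythrocytes, which should lack these transcripts, a median of 1.09% held a UMI of a given gene. With every cell thinned to 500 UMIs, the medians were 9.78% of Epicardium cells and 0.653% of erythrocytes, and all 60 genes had the higher share in Epicardium. The map of the genes over the clusters shows this as 1 bright column.

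**Figure D1:**
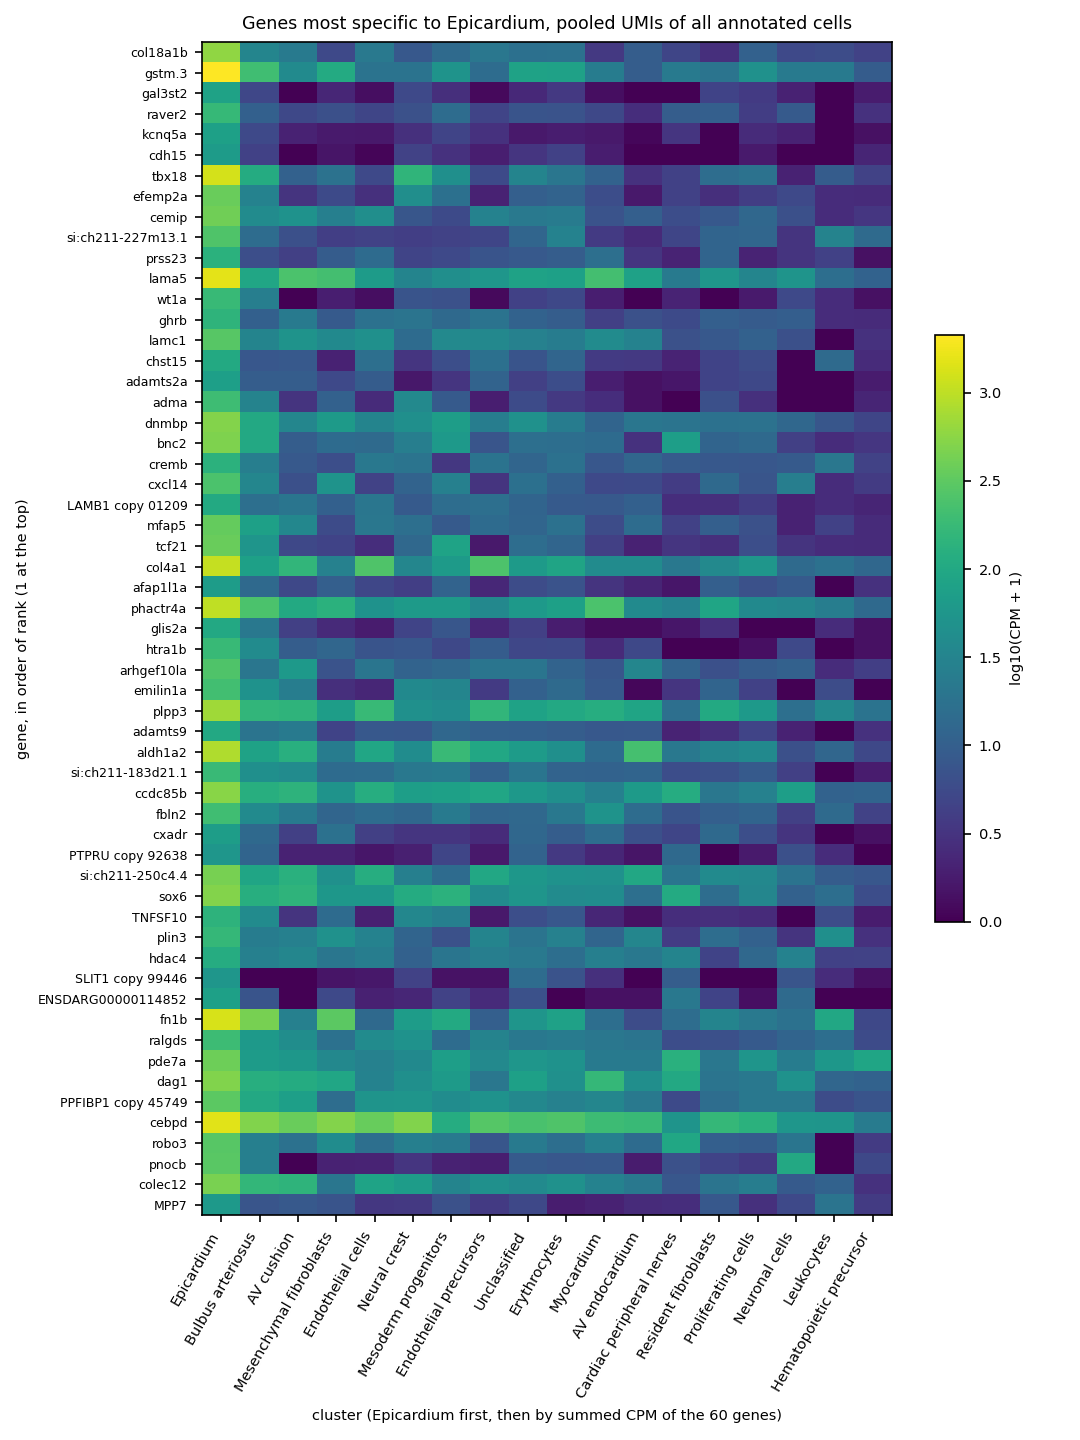
Pooled level of 57 of the 60 genes (rows, by rank) in each of the 18 clusters (columns), as log10 of CPM plus 1. The Epicardium column is the highest in every row because the genes were chosen that way, and Bulbus arteriosus and AV cushion come next by summed level. A gene written as a copy carries the last 5 digits of its Ensembl identifier.

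Of the 20 genes matched on a list of 24 epicardial transcription factors, 6 were among the 60. They were tbx18, wt1a, bnc2, tcf21, sox6 and cebpd. Factors outside that list, such as cremb and glis2a, are named further below. Tbx18, a T-box factor, had the fifth highest pooled level of all 60 and ranked 8. It was found in 62.6% of Epicardium cells and in 3.03% of all other cells. Its level was 426 and 0 CPM at 48 hpf and 1596 and 1202 CPM at 72 hpf. The library without a UMI is the one with 15 cells.

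Tcf21, a basic helix-loop-helix factor, ranked 26, with 32.9% of cells. Its level was 470.4 and 212 CPM at 48 hpf and 255 and 538 CPM at 72 hpf. The stages overlapped, and tcf21 was 1 of the 13 genes that were highest in Epicardium in each of the 4 libraries.

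Wt1a, a zinc-finger factor, ranked 14 with 17.9% of cells, at 44.1 and 0 CPM at 48 hpf and 188 and 209.9 CPM at 72 hpf. The 44.1 CPM stand for 3 UMIs. Bnc2, a zinc-finger protein of the basonuclin family, was at 162 and 106 CPM at 48 hpf and at 574 and 481 CPM at 72 hpf. Sox6, an HMG-box factor, was at 88.2 and 35.4 CPM and then at 668 and 408 CPM. Cebpd, a C/EBP factor with a role in inflammation in mammals, was at 529 and 778 CPM and then at 1619 and 1706 CPM. For wt1a, bnc2, sox6 and cebpd both 72 hpf libraries were above both 48 hpf libraries, as for 31.9% of all genes tested for stage.

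UMIs of tbx18 and tcf21 were found together in part of the cells. At 72 hpf 65.7% of the 545 cells held tbx18 and 33.6% held tcf21. Both were found in 136 cells, while the product of the 2 shares gives 22.1% of cells. At 48 hpf 27.1% of the 48 cells held tbx18, 25% held tcf21 and 14.6% (7 cells) held both, beside 6.77% from the product. Deep cells hold more of any gene, and no test was made on these shares.

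Genes of the basement membrane, the thin matrix sheet under an epithelium, gave 5 of the 60 on a list of 22 (17 matched). Col18a1b, a chain of collagen XVIII, held rank 1. It had no UMI among the 48 hpf cells and stood at 515 and 958 CPM at 72 hpf, against 32.1 CPM in Bulbus arteriosus, the second cluster. Lama5 (laminin alpha 5) was at 279 and 70.8 CPM at 48 hpf and at 1680.4 and 1809 CPM at 72 hpf. Lamc1 (laminin gamma 1) was at 103 and 106 CPM and then at 262 and 389 CPM.

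A second type of chain came from collagen IV. Col4a1 was at 58.8 and 248 CPM at 48 hpf and at 1136 and 1332 CPM at 72 hpf. Dag1 (dystroglycan, a laminin receptor) was at 515 and 248 CPM and then at 509.8 and 496 CPM. Dag1 was the only one of these 5 whose stages overlapped. Of all genes tested for stage, 31.9% had both 72 hpf libraries above both 48 hpf libraries. A LAMB1 copy (ENSDARG00000101209, a laminin beta chain by its human symbol) had rank 24 with 12.0% of cells, so that 1 gene each for an alpha, a beta and a gamma laminin chain is among the 60. The list names lamb1a and lamb1b, but the copy could not be matched to either, so the counts on the list leave it out.

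Interstitial matrix and its enzymes gave 7 of the 60 on a list of 27 (19 matched). Efemp2a (fibulin-4, needed for elastic fibers) was at 14.7 and 0 CPM at 48 hpf and at 334 and 553 CPM at 72 hpf. Cemip, a hyaluronan-degrading protein, was at 0 and 35.4 CPM and then at 408 and 531 CPM. Both had a single UMI at 48 hpf. Mfap5, a microfibril protein, was at 88.2 and 0 CPM and then at 351 and 450.4 CPM, and emilin1a, an elastin-linked glycoprotein, at 44.1 and 35.4 CPM and then at 186 and 309 CPM.

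Of the other members of that list, fn1b separated the stages narrowly and a pair of genes did not. Fn1b (fibronectin) was at 1117 and 142 CPM at 48 hpf and at 1299 and 1626 CPM at 72 hpf. Fbln2 (fibulin-2) was at 456 and 0 CPM and then at 161 and 218 CPM, and htra1b, a serine protease, at 294 and 0 CPM and then at 144 and 214 CPM. In both of these genes the 48 hpf sqet31Et library was the highest of the 4. Outside the list, adamts2a (a procollagen-processing protease, 7.76% of cells), adamts9 (a versican-cleaving protease, 65 of 593 cells), prss23 (a serine protease, 14.3%) and chst15 (a sulfotransferase of chondroitin sulfate, 11.1%) were also among the 60.

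Of 23 listed genes of retinoic acid metabolism and response only 9 were matched. Of these 9, only aldh1a2, the enzyme that makes retinoic acid from retinal, was among the 60. It was found in 46.4% of Epicardium cells at 58.8 and 35.4 CPM at 48 hpf and at 874 and 1137 CPM at 72 hpf. The second cluster was AV endocardium with 223 CPM. Aldh1a2 had the greatest excess of another cluster inside a library, since at 48 hpf AV cushion of sqet33mi59BEt held 347 CPM and AV endocardium of sqet31Et 191 CPM. At 72 hpf Epicardium was the highest in both libraries.

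The most abundant member was gstm.3, a glutathione S-transferase and the 1 of 5 matched genes of that family (9 listed) among the 60. It stood at 1676 and 425 CPM at 48 hpf and at 2057 and 2519 CPM at 72 hpf, and was highest in Epicardium in all 4 libraries. In 48 hpf sqet31Et 1 cell held 49 of its 114 UMIs. A UMI was found in 24.2% and 26.7% of cells at 48 hpf and in 69.0% and 55% at 72 hpf. Bulbus arteriosus followed with 204 CPM pooled.

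Secreted signals gave 3 of 17 matched genes (23 listed). Cxcl14, a chemokine, had no UMI at 48 hpf and stood at 223 and 366 CPM at 72 hpf. Adma (adrenomedullin, a vasoactive peptide) was at 118 and 70.8 CPM and then at 134 and 321 CPM, and pnocb, a precursor of an opioid-like peptide, at 441 and 318 CPM and then at 279.7 and 282 CPM. Pnocb was the 1 gene of the 55 members tested for stage whose 48 hpf libraries were both above both 72 hpf libraries. Of all genes tested, 18.8% were so. Receptors included ghrb (growth hormone receptor, 13.5% of cells), robo3 (a receptor of the Slit family of guidance cues, 28.3%) and colec12 (a scavenger receptor, 39.6%).

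Several top ranks belonged to low genes. Kcnq5a, a subunit of voltage-gated potassium channels, stood at 77.4 CPM, cdh15, a cadherin known from muscle, at 66.9 CPM, and gal3st2, a sugar sulfotransferase, at 82.6 CPM. Each was found in 7.76% to 9.95% of the cells. Raver2, an RNA-binding protein, was at 168 CPM. Their ratios of 8.45 to 9.26 rested on second clusters at 3.51 to 14.2 CPM. The remaining ranks to 25 were taken by si:ch211-227m13.1, an uncharacterized locus, by dnmbp, an activator of Cdc42 found in 41.1% of cells, and by cremb, a cAMP-responsive factor.

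Lower ranks included the following genes. Phactr4a, an actin and phosphatase regulator, stood at 1026 CPM with 54.3% of cells, and plpp3, a lipid phosphatase, at 716 CPM with 51.4%. Arhgef10la (an exchange factor for small GTPases), afap1l1a (an actin-linked adaptor) and cxadr (a junction protein) ran from 68.2 to 258 CPM. Ccdc85b, an adaptor linked to cell junctions, stood at 538 CPM and pde7a, a cAMP phosphodiesterase, at 386 CPM. A further 10 members (among them hdac4, a histone deacetylase, plin3, a lipid droplet protein, and glis2a, a zinc-finger factor) lay between 55.1 and 443 CPM, with ratios of 2.94 to 4.11. At the limit of the list, pnocb, colec12 and MPP7 (a polarity scaffold) had ratios of 2.89, 2.82 and 2.80. The next 3 genes, lurap1, MYRF and a RAPH1 copy (ENSDARG00000061732), had 2.78, 2.77 and 2.76, so the end of the list is not a gap.

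The cluster that came second was Bulbus arteriosus, the smooth muscle outflow chamber, for 20 of the 60 genes (33.3%). Among the other 705 genes that passed the limits it was second for 161 (22.8%). AV cushion, the forming valve tissue, was second for 11 (18.3%, against 34.0% of the other genes), Cardiac peripheral nerves and Neural crest for 5 each, Mesenchymal fibroblasts for 4, Endothelial cells and Myocardium for 3 each, and 6 further clusters for 1 or 2 each. Neural crest was second for 8.33% of the 60 and for 1.84% of the other genes.

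The genes shared with each neighbour differed. Bulbus arteriosus followed for wt1a, bnc2, col18a1b, gstm.3, fn1b, mfap5, emilin1a and htra1b. Neural crest followed for tbx18 (151 CPM), efemp2a (43.1 CPM), adma, cdh15 and gal3st2. AV cushion followed for lama5 (244 CPM), lamc1, cemip, ghrb and sox6. Endothelial cells followed for col4a1 (254 CPM), plpp3 and the LAMB1 copy. Tcf21 and raver2 had Mesoderm progenitors second, at 84.4 and 14.2 CPM. Summed over the 60 genes the pooled level was 3868 CPM in Bulbus arteriosus, 2686 CPM in AV cushion and 2268 CPM in Mesenchymal fibroblasts.

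The 4 libraries did not carry the list equally. The 60 genes made up 1.01% and 0.602% of the Epicardium UMIs at 48 hpf and 2.38% and 2.74% at 72 hpf, beside 0.156% to 0.242% in the other annotated cells of the same libraries. Of the 60 genes, 52 and 35 had a UMI at 48 hpf and 59 each at 72 hpf. In the 48 hpf sqet33mi59BEt library 44 genes had fewer than 3 UMIs, so a 0 there allows up to 106 CPM. Epicardium was the highest cluster for 37 and 21 of the 60 at 48 hpf and for 59 in each 72 hpf library.

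Beside aldh1a2, the largest excess of another cluster was found for col4a1 (285 CPM in AV cushion, 48 hpf sqet31Et), tbx18 (166 CPM in Neural crest, 48 hpf sqet33mi59BEt, where Epicardium had no UMI), lama5 (407 CPM in Mesenchymal fibroblasts, 48 hpf sqet31Et) and robo3 (118 CPM in Cardiac peripheral nerves, 48 hpf sqet33mi59BEt). In all 4 libraries Epicardium was highest for 13 genes, and in at least 3 for 43.

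The same ranking run on 1 library at a time gave lists of 60 that shared 42 and 36 genes with the pooled list for the 72 hpf libraries and 11 and 2 for the 48 hpf libraries. The 2 lists of 72 hpf had 32 genes in common (53.3% of each). All 60 genes chosen on 72 hpf sqet31Et alone were also highest in Epicardium at 72 hpf in sqet33mi59BEt, and 57 of 60 the other way round. Of all genes with a UMI, 10.8% and 10.1% were highest in Epicardium there. Read at 48 hpf, the list from 72 hpf sqet31Et was highest in Epicardium for 30 of 60 genes in sqet31Et and for 16 in sqet33mi59BEt, where 28 of the 60 had no UMI, beside 7.31% and 8.67% of all genes with a UMI. The list chosen on 48 hpf sqet31Et was highest in Epicardium for 34 and 33 of 60 genes at 72 hpf and for 15 in 48 hpf sqet33mi59BEt. The list from 48 hpf sqet33mi59BEt was so for 13 and 9 at 72 hpf and for 7 in 48 hpf sqet31Et. The clusters were made from all genes of all 4 libraries together, so these counts are not independent of the cluster names.

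**Figure D2:**
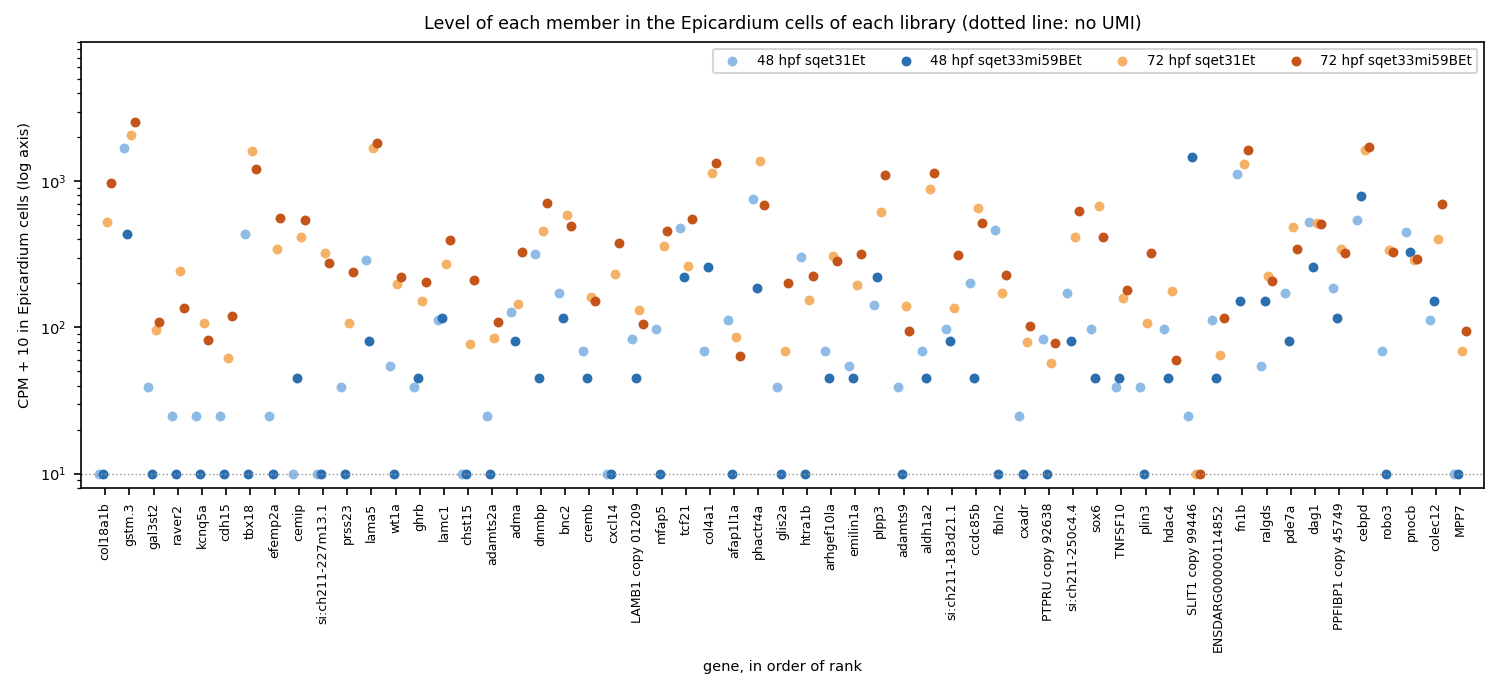
Level of 57 of the 60 genes in the Epicardium cells of each library, as CPM plus 10 on a log axis, genes by rank. Blue points are 48 hpf and orange points 72 hpf, and points on the dotted line had no UMI. Orange points lie above blue ones for most genes, with tcf21, dag1, htra1b, fbln2 and pnocb among the exceptions.

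The 60 genes were also counted in each cell. After thinning to 500 UMIs the median Epicardium cell held a UMI of 3 of the 60 genes in the first 48 hpf library and of 2 in the second, against 9 and 10 at 72 hpf. The highest cell held 20. The share of cells with 5 or more was 27.3% (exact 95% interval 13.3% to 45.5%) and 13.3% (1.66% to 40.5%) at 48 hpf, and 86.5% (81.6% to 90.5%) and 90% (86.0% to 93.2%) at 72 hpf. These intervals cover counting error only. Both 72 hpf libraries lay above both 48 hpf libraries, and 545 of the 593 cells on which the genes were chosen are of 72 hpf.

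In each of the other 17 clusters the median pooled over libraries was 0 or 1. By library it reached 2 in AV cushion and Bulbus arteriosus (72 hpf sqet33mi59BEt) and in Mesoderm progenitors (72 hpf sqet31Et). Cells with 5 or more of the genes made up 7.37% of Bulbus arteriosus, 6.22% of Mesoderm progenitors and 4.34% of Neural crest. No Mesoderm progenitor of either 48 hpf library was among them, but 18.9% (sqet31Et) and 19.4% (sqet33mi59BEt) of those at 72 hpf were. No test was made, since the genes were chosen on these cells.

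**Figure D3:**
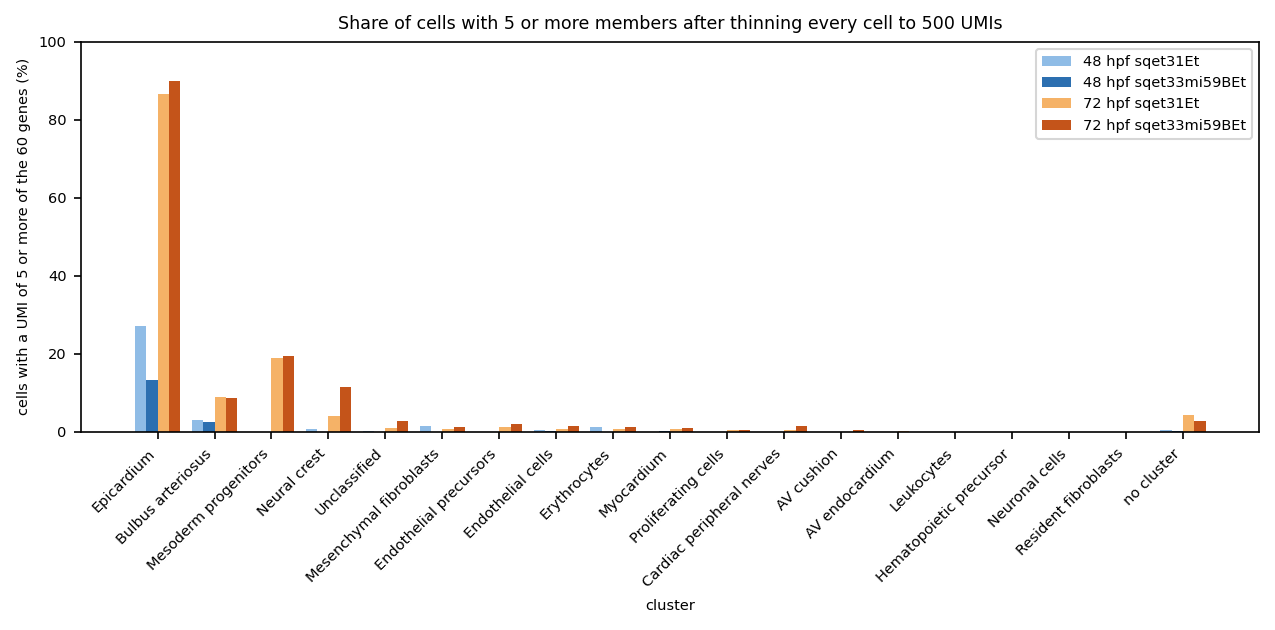
Share in percent (bars, 1 per library) of cells with a UMI of 5 or more of the 60 genes after thinning to 500 UMIs, by cluster, with barcodes without a cluster at the right. Epicardium reaches 86.5% and 90% at 72 hpf and 27.3% and 13.3% at 48 hpf. Mesoderm progenitors, the next by their highest library, reach 19.4%.

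Few members rested on a handful of cells. A SLIT1 copy (ENSDARG00000099446, a guidance cue by its human symbol) had 42 UMIs in 3 cells, all of 48 hpf, and was at 14.7 and 1451 CPM there and at 0 in both 72 hpf libraries. Without the 5 cells richest in each gene, 58 of the 60 were still highest in Epicardium, and the SLIT1 copy was not.

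The next question was whether the genes changed between 48 and 72 hpf inside the cluster. UMIs were summed per library over the Epicardium cells and the 2 stages compared with edgeR's quasi-likelihood test, adjusted by Benjamini-Hochberg over all 2462 genes that passed the filter on low counts. Of all these genes, 4.51% were called, 2.56% higher and 1.95% lower at 72 hpf (63 and 48 genes, but 59 and 69 when mitochondrial genes were left out). Of the 60 genes 55 could be tested, and 18 were called higher at 72 hpf. Among the 5 not tested were cdh15, glis2a, MPP7 and the SLIT1 copy. None was called lower. At an unadjusted p under 0.05 the counts were 37 higher and 0 lower, beside 499 of all 2462 genes in either direction. DESeq2 called 10 of the 48 members it tested higher and 0 lower. The SLIT1 copy was called lower when the filter was lifted or when any library but the 48 hpf sqet33mi59BEt one, which holds nearly all its UMIs, was left out. Their median log2 change was 2.10 beside 0.15 for all genes tested, and 2.08 with the genes at 0 at 48 hpf set to their lower bound.

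The choice of the genes leans to 72 hpf, because 545 of the 593 cells came from it. Of the 55 genes tested, 22 reached the filter's level of 60.6 CPM in neither 48 hpf library and 16 in only 1, so they passed through the 72 hpf libraries and their count is no support for a change. The other 17 reached it in both 48 hpf libraries, though in the sqet33mi59BEt one it lies under the 106 CPM of 3 UMIs. These 17 held 3 of the 18 calls, lama5 (2 UMIs in that library), plpp3 (6) and colec12 (4). The median change of the 17 was 1.26. The 596 further genes tested that were highest in Epicardium lean the same way. Of them 5.37% were called higher and 1 gene lower, with a median of 0.74. In 44 of the 55 genes both 72 hpf libraries were above both 48 hpf libraries, beside 31.9% of all genes tested. Fewer transcripts per cell and fewer cells that make them cannot be told apart in these sums.

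The number of calls depended on the method. The bias-adjusted form of the same quasi-likelihood fit, which was added after the data had been seen, called 73 genes and 10 of the 60. DESeq2 called 65 of the 1828 genes and 10 of the 48 members it tested. With every cell thinned to 500 UMIs, also added later, 13 of 1063 genes and 4 of 40 members tested were called. The 4 were col18a1b, lama5, col4a1 and aldh1a2. Aldh1a2, col18a1b and lama5 kept an adjusted p under 0.05 in all 12 alternatives.

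Aldh1a2 rose by a log2 change of 4.22 ± 0.62 (SE, edgeR adjusted p = 7.69e-04), but it was under the filter's level in both 48 hpf libraries and so passed through those of 72 hpf. Over its alternatives the adjusted p ran from 7.26e-07 to 0.0268. Lama5 rose by 3.08 ± 0.56 (adjusted p = 0.00306) and col4a1 by 3.22 ± 0.61 (adjusted p = 0.00422). Sox6 rose by 2.91 ± 0.64 (adjusted p = 0.0132) and plpp3 by 2.31 ± 0.54 (adjusted p = 0.0187). In each of these both 72 hpf libraries stood above both 48 hpf libraries. Col4a1 and sox6 reached the filter's level in only 1 of the 48 hpf libraries, so they too passed through those of 72 hpf.

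Col18a1b, cxcl14, si:ch211-227m13.1 and chst15 were called with no UMI among 96285 at 48 hpf. Against a floor of 3 UMIs over both 48 hpf libraries (31.2 CPM), col18a1b was at least 22.1-fold higher at 72 hpf, si:ch211-227m13.1 at least 9.44-fold, cxcl14 at least 8.96-fold and chst15 at least 3.85-fold. Their adjusted p from edgeR were 4.72e-04, 0.00274, 0.00274 and 0.0384. Efemp2a, cemip and raver2 had 1 UMI each at 48 hpf. The pooled CPM ratio of 72 to 48 hpf was 40.5 for efemp2a (exact 95% counting interval 7.21 to 1604.4), 43.9 for cemip (7.83 to 1741) and 18.4 for raver2 (3.24 to 731), with adjusted p of 0.00184, 0.00221 and 0.0309.

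For the other 6 calls the values were as follows. Mfap5 rose by 2.68 ± 0.67 (adjusted p = 0.0283), robo3 by 2.94 ± 0.72 (0.0242), emilin1a by 2.48 ± 0.69 (0.0434), arhgef10la by 2.43 ± 0.65 (0.0354), colec12 by 2.12 ± 0.56 (0.0341) and tbx18 by 2.42 ± 0.68 (0.04997), all in edgeR. Of these 6 only colec12 reached the filter's level in both 48 hpf libraries. None of the 6, nor chst15 or raver2 (adjusted p = 0.0898 and 0.0637), was called by edgeR's bias-adjusted fit. Without the 72 hpf sqet33mi59BEt library 9 of the 18 kept their call, and without the 48 hpf sqet31Et library 11 did.

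Just outside the threshold stood ccdc85b (2.08 ± 0.59, adjusted p = 0.0508), bnc2 (1.87 ± 0.54, 0.0521) and wt1a (2.63 ± 0.76, 0.0529). Tcf21 had a log2 change of 0.03 ± 0.51, gstm.3 of 1.00 ± 0.51 and fn1b of 1.03 ± 0.58, with adjusted p of 0.989, 0.289 and 0.349. These SEs leave room for changes of either sign in tcf21. Fbln2 (-0.62 ± 0.66) and pnocb (-0.51 ± 0.47) were among the lowest fitted changes, and neither was called.

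**Figure D4:**
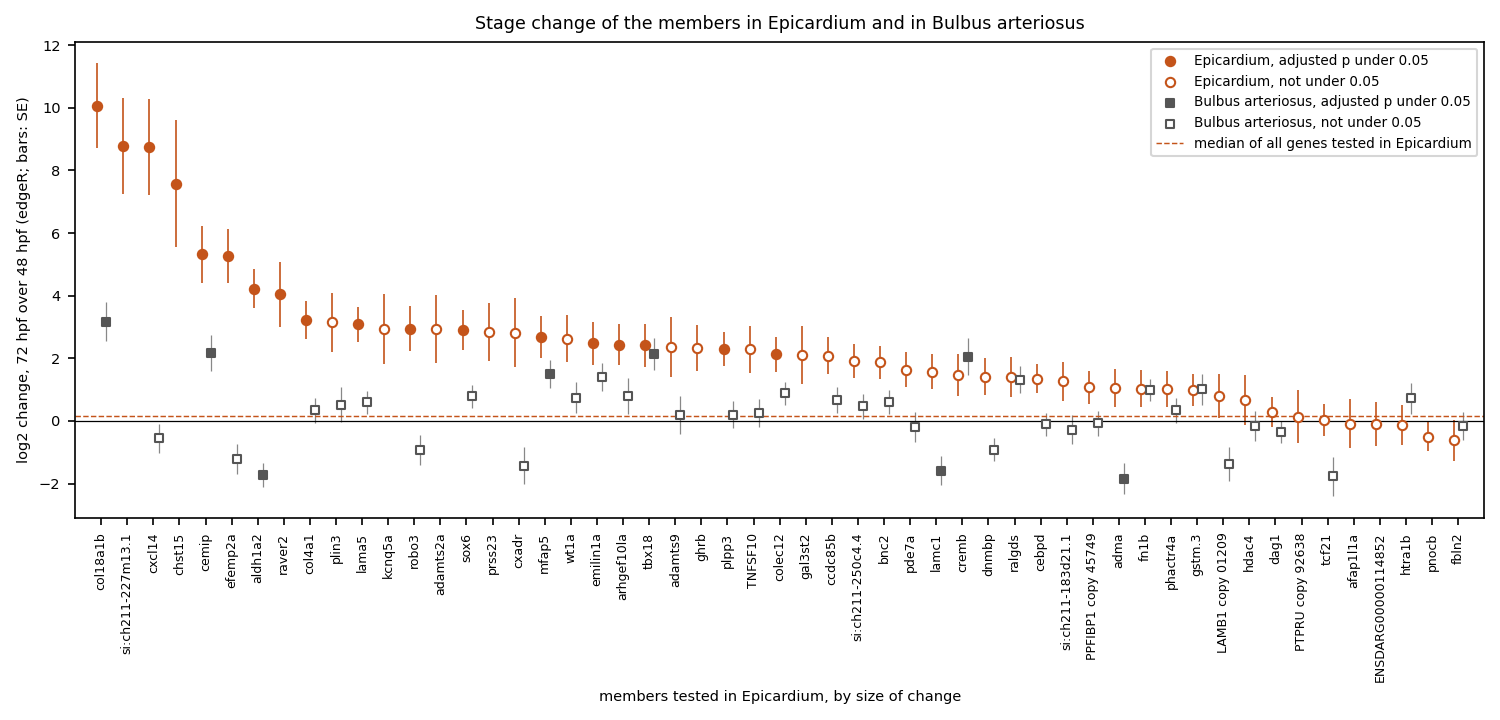
Log2 change from 48 to 72 hpf of 53 of the 55 genes tested in Epicardium (circles) and, where also tested, in Bulbus arteriosus (squares). The SE bars are derived from edgeR's F statistic. Filled points have an adjusted p under 0.05, 18 of them in Epicardium, all above 0. The 4 leftmost genes had no UMI at 48 hpf, so the size of their fitted change is set by the prior count.

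The same lists of functions read over members and other genes gave uneven counts. Of 9 matched basement membrane genes tested, the LAMB1 copy not among them, 5 were called higher and none lower. They were the 3 members col18a1b, lama5 and col4a1 and also lama4 (3.03, edgeR adjusted p = 0.00848) and col4a2 (2.75, edgeR adjusted p = 0.0292). Lama4 and col4a2 were highest in Epicardium but under rank 60. Beside this stand the 2.56% of all genes tested and the 5.37% of the further genes highest in Epicardium that were called higher, and col18a1b had no UMI at 48 hpf. Of the 5 only lama5 reached the filter's level of 60.6 CPM in both 48 hpf libraries, in sqet33mi59BEt with only 2 UMIs. The others passed through the 72 hpf libraries, so the count is no support for a change. Of 16 interstitial matrix genes, 4 were called higher, all of them members, and none of the 4 reached that level in both 48 hpf libraries. Of 13 epicardial regulators, 4 were called higher (tbx18, sox6, ebf3a.1 and snai2) and twist1b, a mesenchymal factor, lower (-2.31, adjusted p = 0.0148). Only ebf3a.1 of the 4 reached the filter's level in both 48 hpf libraries. Its highest cluster was Cardiac peripheral nerves (959 CPM, against 900 CPM in Epicardium). Tbx18, sox6 and snai2 passed through the 72 hpf libraries, and twist1b through those of 48 hpf. Of 8 secreted signals, cxcl14 was called higher and slit3, a guidance cue, lower (-2.61, adjusted p = 0.0385). Cxcl14 passed the filter through the 72 hpf libraries and slit3 through those of 48 hpf. Of 6 keratin and epithelial genes, krt15 was called higher (4.46, edgeR adjusted p = 0.0101) and krt18a.1 lower (-1.73, edgeR adjusted p = 0.0334). Krt15 passed through the 72 hpf libraries. Krt18a.1 was above the filter's level in all 4, at 5042 and 3609 CPM at 48 hpf and at 854 and 1924 CPM at 72 hpf. Its highest cluster was Endothelial cells.

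In Bulbus arteriosus, the cluster most often second, the stages were compared in the same way over 5429 genes, of which 8.66% were called (4.68% higher and 3.98% lower). Of the 60 genes 44 could be tested there and 8 were called. Col18a1b (3.17 ± 0.62), cemip (2.17 ± 0.57), tbx18 (2.14 ± 0.51), cremb (2.05 ± 0.59) and mfap5 (1.51 ± 0.44) were called higher at 72 hpf, with edgeR adjusted p from 0.00274 to 0.0421. Lamc1 (-1.59 ± 0.46), aldh1a2 (-1.72 ± 0.39) and adma (-1.84 ± 0.50) were called lower, with adjusted p from 0.00834 to 0.0412. In this cluster col18a1b stood at 3.34 and 6.64 CPM at 48 hpf and at 43.6 and 51.2 CPM at 72 hpf. Cremb stood at 6.67 and 8.85 CPM and then at 35.9 and 29.99 CPM. Col18a1b and cremb were under the filter's level for this cluster in both 48 hpf libraries, so they passed through those of 72 hpf. Mfap5 reached it in every library. For the other genes called, a pass through the libraries of only 1 stage was not tested. The count of these calls is therefore no support for a change. The median of the 44 was 0.29, beside 0.01 for all genes tested. Both 72 hpf libraries were above both 48 hpf libraries for 17 of the 44 (38.6%), beside 28.2% of all genes tested, and below them for 11 (25%, beside 19.6%). DESeq2 called 3 of the 52 members it tested. With line as a block 11 of 44 were called, and with the filter lifted 10 of 59. With 1 library left out, which leaves 1 library in a stage, the median change of the members was 0.14 to 0.56.

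The difference of the 2 stage changes was tested with the library as a block over 5850 genes, of which 2.02% were called (1.37% with the larger rise in Epicardium). Of the 60 genes 58 gave a value and 14 were called, all in that direction. The genes were chosen for a high level in Epicardium, on cells mostly of 72 hpf, which favours that direction. The count is therefore no support for a change. The median difference was 2.01, beside 0.34 over all genes. The count of calls was not stable. The bias-adjusted fit called 2 of 58 and DESeq2 6 of the 28 it tested. With 1 library left out, which leaves 1 library in a stage, the median difference was 1.57 to 3.92. The 2 genes called by both forms of the fit were aldh1a2, with a difference of 6.08 ± 0.62 on the log2 scale (adjusted p = 0.00185 in edgeR's bias-adjusted fit), and efemp2a, with 6.49 ± 0.90 (adjusted p = 0.02 in that fit). In Epicardium at 48 hpf efemp2a had 1 UMI in all and aldh1a2 had 4 and 1, so the sizes of both differences rest on few counts. Aldh1a2 was called higher in Epicardium and lower in Bulbus arteriosus. For tbx18 the difference was 0.41 ± 0.58 (adjusted p = 0.841).

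Finally the genes were read in barcodes that took no part in the choice. The deposited matrices hold 17771 barcodes without a cluster. Barcodes with UMIs of 5 or more of the 30 odd-rank genes after thinning to 500 UMIs were set against the rest, and only the 30 even-rank genes were read. Such barcodes numbered 3 (sqet31Et) and 1 (sqet33mi59BEt) among those of 48 hpf, and 137 and 38 among those of 72 hpf. Their median depth before thinning was 5748, 6091, 1685 and 2166.5 UMIs. The summed even-rank level in them was 12000 CPM (18 UMIs) and 4000 CPM (2 UMIs) at 48 hpf, and 11358 and 13632 CPM at 72 hpf. In the other barcodes it was 667, 755, 1149 and 943 CPM.

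The log2 ratios were 4.16, 2.40, 3.30 and 3.85, with a mean of 3.43 ± 0.77 (SD, n = 4). All 4 were above 0, for which the two-sided exact permutation test gives p = 0.13, the smallest that 4 libraries allow. Odd-rank and even-rank genes were chosen on the same Epicardium cells. A ratio above 0 was therefore likely beforehand, and its sign is no independent support for the list. Pooled over libraries all 30 even-rank genes were higher in the chosen barcodes, with a median fold of 14.2. In both 72 hpf libraries 25 of the 30 were higher, and 1 was higher in all 4 libraries. Tbx18 stood at 1274 CPM in them and at 38.9 CPM in the rest, and gstm.3 at 2860.3 and 74.7 CPM. Counting all 60 genes, 12, 9, 319 and 90 of the barcodes without a cluster held 5 or more.

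**Figure D5:**
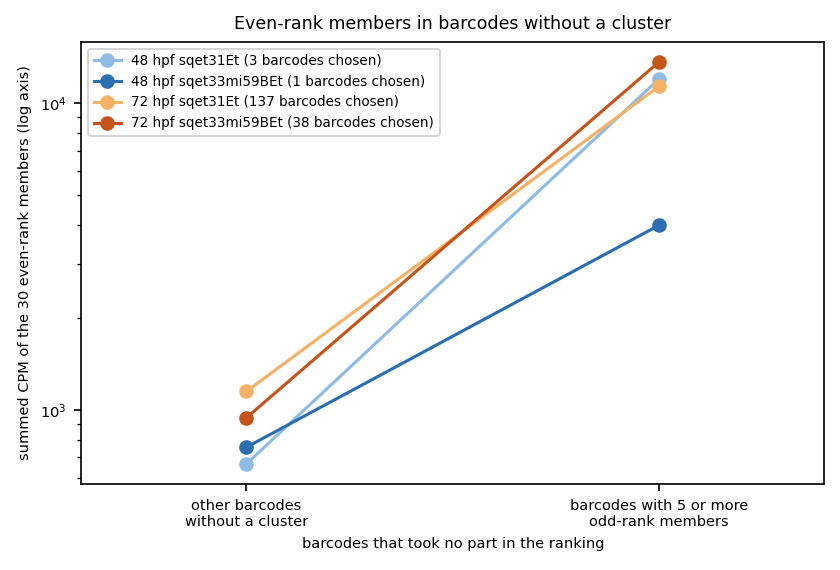
Summed CPM of the 30 even-rank genes (log axis) in barcodes without a cluster, for barcodes with 5 or more odd-rank genes and for the rest, 1 line per library. Each line rises, from 667 to 1149 CPM on the left to 4000 to 13632 CPM on the right, and the 48 hpf points on the right rest on 3 and 1 barcodes.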

How the data were processed

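The 4 single-cell libraries were used as deposited. The authors mapped reads with Cell Ranger 3.1.0 to GRCz11 (Ensembl release 100, extended by the reporter genes), clustered the kept cells in Seurat 4.0.1 and named the clusters. The deposited matrices hold counts, whole UMIs per gene and barcode before filtering. The deposited annotation gives a percent of mitochondrial UMIs, total counts and genes detected per cell, and, as labels, the library, cluster and doublet mark used here. Barcodes without a cluster name all carry the doublet mark, so doublets among them could not be told from cells removed for other reasons, and no doublet caller was run.

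UMIs were summed per cluster or per library and cluster, with Python 3.11.15. Stage fits used edgeR 4.0.16 in R 4.3.3 (quasi-likelihood, TMM, filterByExpr, Benjamini-Hochberg, threshold 0.05), with DESeq2 1.42.0 as an alternative. The SE of a log2 change is its absolute size over the square root of edgeR's F statistic. Where the fit of the difference gave no usable statistic, a gene has no value. On simulated Epicardium counts of 2535 genes the fit recovered 35.1% of 4-fold and 72.8% of 8-fold changes. Thinning was without replacement (seed 11).

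Named are ranks 1 to 25, members called for stage, members on a function list, ranks 58 to 63 and the 5 largest excesses of another cluster in a library. Other members were named after their values were seen. Of the 60 identifiers 59 could be named, 7 of them by detection shares and 5 (written as copies, with the identifier) by a human symbol that is not unique. The members and lists were chosen with earlier results of these data known. Results of 3 members are not reported here by name, and these are left out of the figures. One further gene was left out by the rule.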

Additional observations from a re-analysis of the deposited data

Results flagged for a closer look

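The stage change of 14 members differed between Epicardium and Bulbus arteriosus by the edgeR test of the difference itself. The differences on the log2 scale were 6.49 for efemp2a, 6.08 for aldh1a2, 10.44 for cxcl14, 4.31 for cxadr, 3.91 for robo3, 3.28 for lamc1, 3.06 for col4a1, 2.91 for adma, 2.59 for lama5, 2.41 for dnmbp, 2.27 for plpp3, 2.16 for sox6, 2.03 for pde7a and 1.52 for cebpd, all larger in Epicardium. For cxcl14, which had no UMI in Epicardium at 48 hpf, the size is set by the prior count. Efemp2a and cxadr had 1 UMI each there, so their sizes rest on few counts. In the bias-adjusted fit only efemp2a and aldh1a2 had an adjusted p under 0.05, and for the other 12 it ran from 0.0779 to 0.322.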

How the results depend on the processing

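Of the 60 members, 43 to 57 were kept under the other settings of constant, CPM minimum, mitochondrial total, 72 hpf libraries alone or 1 library left out, 60 without the Unclassified cluster, and 38 with each library weighted equally. The median number of members per Epicardium cell, averaged over libraries, was 6 after thinning and 10.75 unthinned. For all genes in Epicardium, 111 calls became 65 (DESeq2), 168 (library totals only), 174 (line as a replicate block), 73 (bias-adjusted fit) and 13 (thinned), and 52 to 163 with 1 library left out. Without mitochondrial genes 59 were higher and 69 lower, against 63 and 48. The 18 member calls became 10 (DESeq2), 10 (bias-adjusted fit), 4 (thinned), 23 (line block) and 10 to 18 with 1 library left out. In Bulbus arteriosus 8 became 3 (DESeq2), 11 (line block) and 2 to 11. For the difference 14 became 6 (DESeq2), 9 (line block), 2 (bias-adjusted fit) and 3 to 20. TMM moved the median change by -0.10. Deviations of the libraries of a line from their stage means were not correlated (r = 0.03 over 2462 genes). With 33 and 15 Epicardium cells at 48 hpf, this value cannot decide whether the line is a pairing. No named member changed sign with a call under any alternative. The even-rank ratio stayed between 2.32 and 3.77 on the log2 scale. Few 48 hpf cells limit every stage result, and the cause of these shifts was not tested.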
